A study of Notophthalmus viridescens with 18 samples.

Results

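Senescent newt cells and newt myotubes have both left the cell cycle, by different routes, and their transcripts were set against each other directly. The comparison took 6 of the 18 RNA-seq libraries of the series, the 3 labelled SEN and the 3 labelled MT_0.25%. The 3 PRO libraries, from the proliferating cells of the same line, were the reference that told transcripts moved in both arrested states from those moved in 1. All cells were A1, a wild-type myogenic line from the limb of the newt Notophthalmus viridescens that fuses into multinucleate myotubes in low serum. SEN cells received 20 µM etoposide, a topoisomerase poison that breaks DNA, together with 1 µM nutlin, which keeps p53 from being degraded. After 24 h they stayed in 1 µM nutlin alone for another 11 days in 10% FCS and were collected on day 12. MT_0.25% myotubes formed over 5 days in 0.25% FCS and spent 3 more days in the same serum, and on day 8 the cells that went through a 100 µm filter but stayed on a 30 µm one were taken (pore sizes as in the labels; the study's methods give another size for the second filter). PRO cells had DMSO vehicle in 10% FCS, were subcultured once and were collected on day 12. MT_10% myotubes (3 libraries) were given 10% FCS for the last 3 of their 8 days and were otherwise made as MT_0.25%, so they match SEN in serum at collection. The study describes MT_10% as myotubes that dedifferentiate under serum, so they are not a second arrested state.

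The kind of arrest went together with the serum, the day of collection, the filtering and the RNA kit (RNeasy mini for SEN and PRO cells, RNeasy micro for myotubes), and these cannot be told apart in the direct comparison. A1 is a single line, SEN cells were not sorted or filtered, and myotubes were selected by size alone. In bulk RNA, fewer cells of a type and less RNA per cell cannot be told apart. The labels do not say whether the 3 libraries of a group came from separate cultures, so the p-values measure the spread between these libraries, which may be technical.

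Senescence is a lasting arrest set off by damage, in which p53 and its targets hold the cell cycle and the cell often secretes proteases, cytokines and growth factors. Myotubes stop dividing as part of differentiation, when myogenic factors such as myogenin switch on the sarcomere proteins and the enzymes that feed contraction. Newt myotubes are known for their ability to go back into the cell cycle when exposed to serum, which mammalian myotubes do poorly. Both states are met in the regenerating newt limb, where senescent cells appear and are cleared and where muscle fibres give rise to progenitors.

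Assigned reads per library, in units of 1e6, ranged from 31.5 to 45.3 in SEN, 35.2 to 52.0 in MT_0.25% and 37.7 to 44.4 in PRO. Of 27395 entries, 25291 to 25440 were above 0 in SEN libraries, 25594 to 26414 in MT_0.25% and 23671 to 24179 in PRO. Levels below are TMM-scaled counts per 1e6 reads (CPM). The labels were compared with marker lists. The 20 myotube markers (the differentiation panel without Myf5) summed to 76.8, 88.8 and 77.6 CPM in SEN, against 1275, 908 and 1071 in MT_0.25%, and to 65.1, 84.1 and 73.5 in PRO, with 2 of the 20 at 0 in every SEN library. The 17 cycling-cell markers summed to 73.9, 79.9 and 82.0 in SEN, against 94.9, 186.7 and 120.0 in MT_0.25%, and to 987, 1000.3 and 840 in PRO. The 5 senescent-cell markers, most of whose reads came from Mmp3/10a, summed to 269, 169.9 and 191 in SEN, against 10.7, 18.1 and 18.4 in MT_0.25%, and to 47.3, 50.2 and 28.8 in PRO. In CPM, Mmp3/10a, Csf1 and Adam10l were higher in SEN, but Il6 and Il8 were higher in MT_0.25%. The means of Il6 and Il8 were 1.86 and 5.51 CPM there, against 1.00 and 2.39 in SEN. Neither of these 2 differences held in all the alternatives given below. Myf5 and Timp1.1, taken as markers of mononucleate myogenic cells, summed to 7233, 5569 and 6187 in SEN and 271, 472 and 415 in MT_0.25%, against 16913 to 26559 in PRO. The difference in this sum came from Timp1.1, whose mean was 6239 CPM in SEN and 210 in MT_0.25%. Myf5 went the other way, with means of 90.8 CPM in SEN and 177 in MT_0.25%. For each of the 4 lists the SEN and MT_0.25% sums did not overlap, and the exact two-sided permutation p was 0.1, the smallest that 3 against 3 libraries allow. The markers come from panels that the study drew on these same libraries. The separation of the sums is therefore not an independent check of the labels.

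SEN and MT_0.25% differed widely. Of 23107 transcripts, 12092 were called (52.3%), 6210 of them higher in SEN (26.9%) and 5882 higher in MT_0.25% (25.5%), where called means an edgeR adjusted p under 0.05 over all transcripts (quasi-likelihood test). The same test called 11755 transcripts between SEN and PRO (50.9%) and 16114 between MT_0.25% and PRO (69.7%). Differences reached further on the myotube side: among the calls, 377 were over 3 on the log2 scale towards SEN and 565 towards MT_0.25%. Throughout, a log2 fold change is SEN over MT_0.25% unless another pair is given, is positive where SEN was higher, and carries its standard error. All 3 libraries of one state lay above all 3 of the other for 13749 transcripts (59.5%), and 11497 were both called and free of overlap (49.8%). Of all calls, 51.4% were higher in SEN, and on TPM values the share was 40.2%, where the median over all transcripts shifted by -0.12 or -0.17, depending on the pseudocount. TPM divide a count by the length of its entry, and the deposited length was not the same in all libraries: the SEN and MT_0.25% means of the length differed by over 1.5 times for 2817 of the 23107 transcripts (12.2%), and this is given below where a result turns on it. Against MT_10%, myotubes that had 10% FCS at collection as SEN did, 8073 transcripts were called (34.9%), 4374 higher in SEN (18.9%) and 3699 lower (16.0%). This comparison uses the same SEN libraries, so its values are given beside those of MT_0.25% and not as separate evidence. MT_10% also had more reads of cycling-cell markers, at 656, 623 and 633 CPM, against 94.9, 186.7 and 120.0 in MT_0.25%. Serum and return to the cell cycle thus change together in it and cannot be told apart.

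The largest fitted difference on the myotube side belonged to comp9624_c0_seq1, whose closest hit is an uncharacterized chicken protein. It had 0 reads in every SEN and PRO library and 203, 136 and 126 CPM in MT_0.25%, at least 7068-fold higher than SEN when 3 counts over the group are taken as the floor. Next came comp33604_c1_seq1, named muscle-related coiled-coil protein, a caveola-associated protein of muscle. Its CPM was 0.135, 0.0524 and 0.0717 in SEN and 1764, 892 and 868 in MT_0.25% (log2 fold change -13.65 ± 0.51, edgeR adjusted p = 9.8e-15). Both were lower in MT_10% than in MT_0.25% and still far above SEN, at 90.4, 44.2 and 57.5 and 243, 371 and 204 CPM. On the senescent side the largest fitted differences were in comp350_c0_seq1 and Mmp3/10a. comp350_c0_seq1 is named alpha-1-antiproteinase, a serine protease inhibitor that is secreted by the liver in mammals. It reached only 2.1, 3.01 and 2.94 CPM in SEN, and a single read in 1 MT_0.25% library makes the SEN to MT_0.25% ratio 495 (95% interval 88.4 to 19614), an interval that covers counting error only. Tyrosinase (comp7760_c0_seq1), the enzyme that starts melanin synthesis, followed with 22.5, 8.52 and 13 CPM in SEN and 0.0781, 0.101 and 0.0765 in MT_0.25% (log2 fold change 7.37 ± 0.48, edgeR adjusted p = 5.8e-11). FAM166B (comp176651_c0_seq1) had 36.7, 24.6 and 30.4 CPM in SEN and 0.156, 0.419 and 0.395 in MT_0.25% (log2 fold change 6.47 ± 0.33, edgeR adjusted p = 1.4e-12), and its MT_10% libraries, at 0.344, 0.485 and 0.52, lay as low.

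PRO split the transcripts by where they had moved. Both arrested states were above PRO for 4211 transcripts and below it for 4341. SEN and MT_0.25% were still called apart in 1780 of the 4211, with 1342 of these higher in MT_0.25% and 438 in SEN. Among the 4341 shared falls, 1860 were called apart, and 1567 of them had fallen further in MT_0.25%. Opposite moves were rarer: 546 transcripts were above PRO in SEN and below it in MT_0.25%, and 232 did the reverse. Calls against PRO in 1 state, not in the other, with a direct difference in the same direction, numbered 1326 higher in SEN alone, 398 lower in SEN alone, 3320 higher in MT_0.25% alone and 1911 lower in MT_0.25% alone. A further 2254 were called against PRO in 1 state with no call in the direct test, so they cannot be given to either state. These counts depend on how libraries are scaled, and PRO had more of its reads in few transcripts (70.4% in the 500 most abundant, against 57.5% in SEN and 63.8% in MT_0.25%). On TPM values, whose median against PRO shifted by 0.37 to 1.16 on the log2 scale, the shared rises numbered 11049 or 12715 and the shared falls 495 or 472. With the TPM first brought to a common median ratio, an alternative chosen after seeing the data, they were 2889 and 4929, and the opposite moves 466 and 188. Of 33 named transcripts with opposite moves, 14 had a mean TPM on the other side of PRO in 1 of the states. Among them were Myog, titin, adenylate kinase 1, Fgf13, AMP deaminase, tissue factor, BUB1 beta and Fgfr1. All 14 were falls in counts, 9 in MT_0.25% and 5 in SEN, and no rise turned. These mean TPM were not scaled between libraries. Over all transcripts, the median log2 fold change over PRO on log2(TPM + 0.1) was 1.18 for SEN and 1.37 for MT_0.25%. The part of this shift in the turned directions was not tested.

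**Figure D1:**
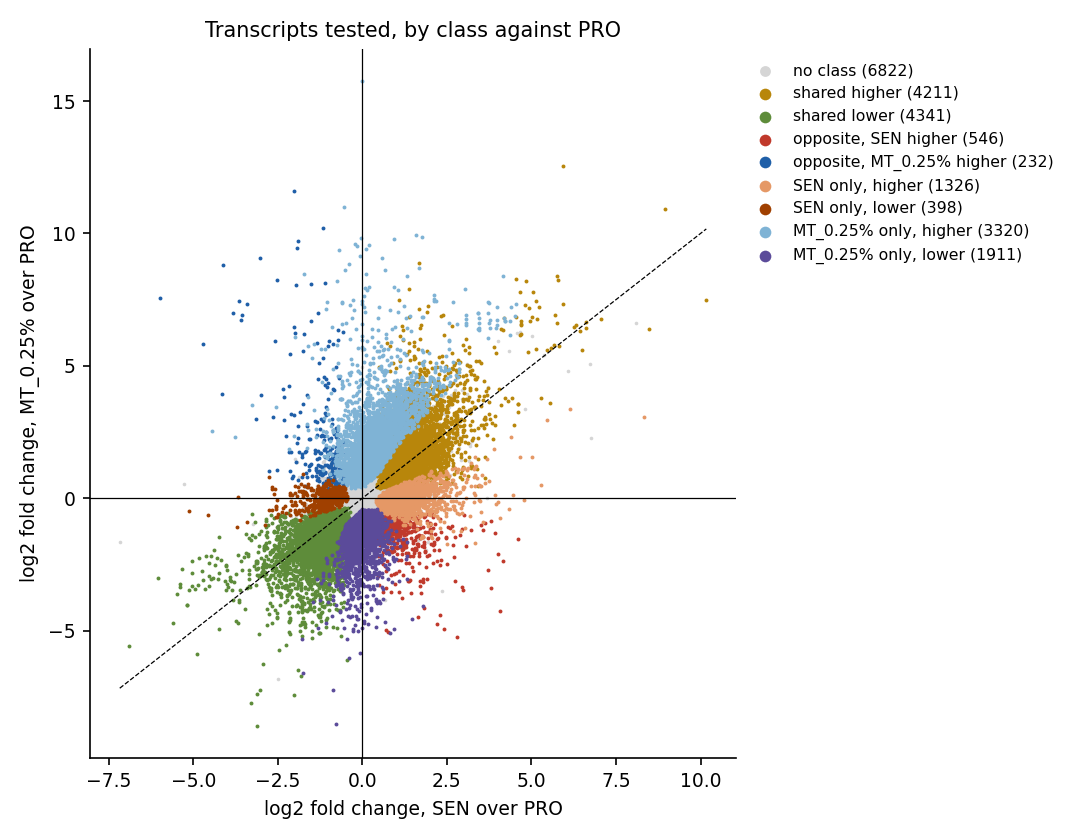
Log2 fold change of MT_0.25% over PRO (vertical axis) against that of SEN over PRO (horizontal axis) for the 23107 transcripts tested, coloured by class with the number in each class. Points on the dashed line moved equally in both states. The PRO libraries enter both axes, so the diagonal spread is not a test of likeness, and the classes to read are the off-diagonal ones, led by 3320 transcripts higher in MT_0.25% alone.

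Within the shared rises, the transcripts with informative names that had moved furthest in both states had no read in any PRO library and were low elsewhere. Wilms tumor 1 (comp179773_c0_seq3), a transcription factor of kidney and gonad, had 0.309, 0.419 and 0.394 CPM in SEN and 0.26, 0.318 and 0.319 in MT_0.25%, at least 10.4-fold and 8.58-fold above PRO. Mediator subunit 26 (comp53991_c0_seq1), part of the complex that links factors to RNA polymerase, had 0.56, 1.1 and 1.36 CPM in SEN and 0.547, 0 and 0.229 in MT_0.25%, including a library at 0 (log2 fold change 2.10 ± 0.85, edgeR adjusted p = 0.044), and the call was lost with RLE factors, in DESeq2 and without SEN replicate 2 or 3 or MT_0.25% replicate 2 or 3. Among the transcripts called higher in SEN alone were strawberry notch homolog 2 (comp43159_c0_seq1, 1.31, 0.734 and 0.663 CPM in SEN, 0, 0 and 0.051 in MT_0.25%) and paraxial protocadherin (comp81058_c1_seq1, a cell adhesion protein of the early mesoderm, 4.44, 1.52 and 1.85 in SEN and 0.13, 0.0145 and 0.14 in MT_0.25%). Anterior gradient protein 2 (comp1205_c0_seq1), which in the newt is the ligand of Prod1 and carries the nerve's effect on the blastema, was seen at 0.386, 0.21 and 0.197 CPM in SEN. With 1 read in MT_0.25%, its SEN to MT_0.25% ratio was 49.8 (95% interval 8.43 to 2016).

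The muscle programme separated the states clearly. Of 17 tested transcripts of the study's differentiation panel, 15 were higher in MT_0.25% (88.2%, against 25.5% of all transcripts) and none in SEN, with a median log2 fold change of -3.03 against 0.02 over all transcripts tested (-1.85 and -2.40 on TPM values, where the pseudocount pulls low transcripts towards 0). The study drew this panel, like the other panels used below, on these same libraries, so its direction is not independent evidence. Myog, the factor that commits myoblasts to differentiate, was at 29.1, 36.5 and 35.3 CPM in SEN, against 461, 299.5 and 318 in MT_0.25% and 47.9, 64 and 59.8 in PRO. SEN libraries thus lay below PRO (-0.77 ± 0.22, SEN over PRO, edgeR adjusted p = 0.0072) and MT_0.25% libraries above it, so that Myog moved in opposite directions (log2 fold change -3.42 ± 0.24, edgeR adjusted p = 2.8e-10, between the states). On mean TPM, which were not scaled between libraries, the fall in SEN turned, with 51.6 in SEN and 46.4 in PRO. In counts Myf5, a factor of undifferentiated myogenic cells, had fallen in both: 458, 569.6 and 289 CPM in PRO became 90.0, 91.8 and 90.4 in SEN and 168, 166 and 195 in MT_0.25%. Mean TPM of Myf5, not scaled between libraries, were 212 in PRO, 101 in SEN and 215 in MT_0.25%. On log2(TPM + 0.1) the median log2 fold change over all transcripts was 1.37 for MT_0.25% over PRO. Like TPM in PRO and MT_0.25% therefore do not show that Myf5 kept its level. Myf5 was lower in SEN than in MT_0.25% (log2 fold change -0.96 ± 0.21, edgeR adjusted p = 0.00079), and MT_10% stood highest of all 4 groups at 580.0, 645 and 701 CPM.

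Most contractile proteins and their partners were far lower in SEN. A wider list of 34 sarcomere and excitation-contraction transcripts was collected by name from transcripts the study had picked as higher in SEN or MT than in PRO (6 from the SEN table, 26 from the MT table, 2 from both). It had 28 members higher in MT_0.25% (82.4%, against 25.5% of all transcripts) and 2 higher in SEN (5.9%, against 26.9%). The median was -4.52 (-2.64 and -4.06 on TPM values). This list and the others collected by name below were thus drawn on these same libraries. Where most members come from 1 table, the pick tilts the direct difference towards that state. Titin (comp121524_c0_seq1), the molecular spring of the sarcomere, had 0.154, 0.446 and 0.125 CPM in SEN and 583, 536 and 684 in MT_0.25% (log2 fold change -11.36 ± 0.45, edgeR adjusted p = 2.6e-14). Myosin light chain kinase 3 (comp2823_c0_seq1), which in mammals phosphorylates the cardiac light chain, had 0.193, 0.262 and 0.376 CPM in SEN and 887, 759 and 859.6 in MT_0.25% (log2 fold change -11.53 ± 0.34, edgeR adjusted p = 1.4e-15), and its PRO libraries were near SEN at 0.223, 0.387 and 0.614. Slow myosin-binding protein C (comp8222_c0_seq2) stood at 0, 0.262 and 0.197 in SEN and 156, 115 and 127 in MT_0.25%. Titin had fallen in SEN against PRO in counts (-1.15 ± 0.47, edgeR adjusted p = 0.046), the other 2 were not called there, and no SEN library came near a myotube library.

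Against PRO, 15 of the 34 members of this list had risen in SEN (44.1%, against 28.2% of all transcripts) and 7 had fallen (20.6%, against 22.6%), with a median of 0.26. The 6 members from the SEN table and the 2 from both had entered the list as higher in SEN than in PRO. The share of rises is therefore raised by the pick and is not evidence of a rise of the list. Both desmin entries were among the rises, from PRO means of 6.86 and 2.23 CPM to 17.8 and 11.6 in SEN. Among the falls was parvalbumin beta (comp98_c0_seq1), a calcium buffer of fast muscle, which had 0.956, 1.8 and 2.15 CPM in PRO, 0.116, 0.105 and 0.215 in SEN and 413, 209 and 164 in MT_0.25%. Its log2 fold changes were -3.42 ± 0.49 for SEN over PRO and 7.33 ± 0.43 for MT_0.25% over PRO, both called (edgeR adjusted p = 1e-05 and 1.1e-11). Ckma, the muscle creatine kinase, went the same way, from 0.605, 1.07 and 0.989 CPM in PRO to 0.328, 0.262 and 0.43 in SEN and 55.7, 43.6 and 55.5 in MT_0.25% (log2 fold change -7.21 ± 0.33, edgeR adjusted p = 2.1e-13). Fast skeletal troponin C (comp73_c0_seq1), the calcium sensor of the thin filament, had no read in any SEN library and 38.5, 25.6 and 36.9 CPM in MT_0.25%, at least 1606-fold higher. In PRO its reads came from 1 library alone (0, 0 and 0.511 CPM), so the fall from PRO to SEN rests on that library. Myh3.1, an embryonic-type myosin heavy chain, had 0.0965, 0 and 0.0717 CPM in SEN and 239, 166 and 209.9 in MT_0.25% (log2 fold change -11.65 ± 0.47, edgeR adjusted p = 3.6e-14), and the slow chain Symhc1.1 had 0.212, 0.105 and 0.269 in SEN and 152, 115 and 141 in MT_0.25% (log2 fold change -9.37 ± 0.34, edgeR adjusted p = 5.9e-15). Reads of near-identical myosin genes are divided among entries by the quantification, so the split between single myosin entries is uncertain.

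The 2 sarcomere-list members called higher in SEN were a calcium pump and a dystrophin entry, and in 11 of 15 alternatives only the pump was called. The pump, comp5019_c0_seq1 (ATPase, Ca++ transporting), returns calcium to the sarcoplasmic or endoplasmic reticulum and had 184, 139 and 138 CPM in SEN, against 64.9, 75.1 and 67.5 in MT_0.25% and 154, 164 and 141 in MT_10%. It was higher in SEN than in MT_0.25% (log2 fold change 1.15 ± 0.24, edgeR adjusted p = 0.00041) with a difference from MT_10% of 0.00 ± 0.24. The dystrophin entry comp269400_c0_seq2 was low, at means of 1.51 and 0.825 CPM (log2 fold change 0.84), whereas the dystrophin entry comp13346_c0_seq2 was higher in MT_0.25% (means 3.42 and 34.6 CPM, log2 fold change -3.34). Desmin, the intermediate filament of muscle, had 2 entries, at means of 17.8 and 11.6 CPM in SEN and 1651 and 270.4 in MT_0.25%. Musk, a kinase of the neuromuscular junction, had means of 1.76 and 25.4 CPM (log2 fold change -3.84) and the acetylcholine receptor delta subunit 0.0878 and 5.02 (log2 fold change -5.77). Against MT_10%, the list gave 26 members lower in SEN and 1 higher (16.0% and 18.9% of all transcripts), with a median of -3.66.

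**Figure D2:**
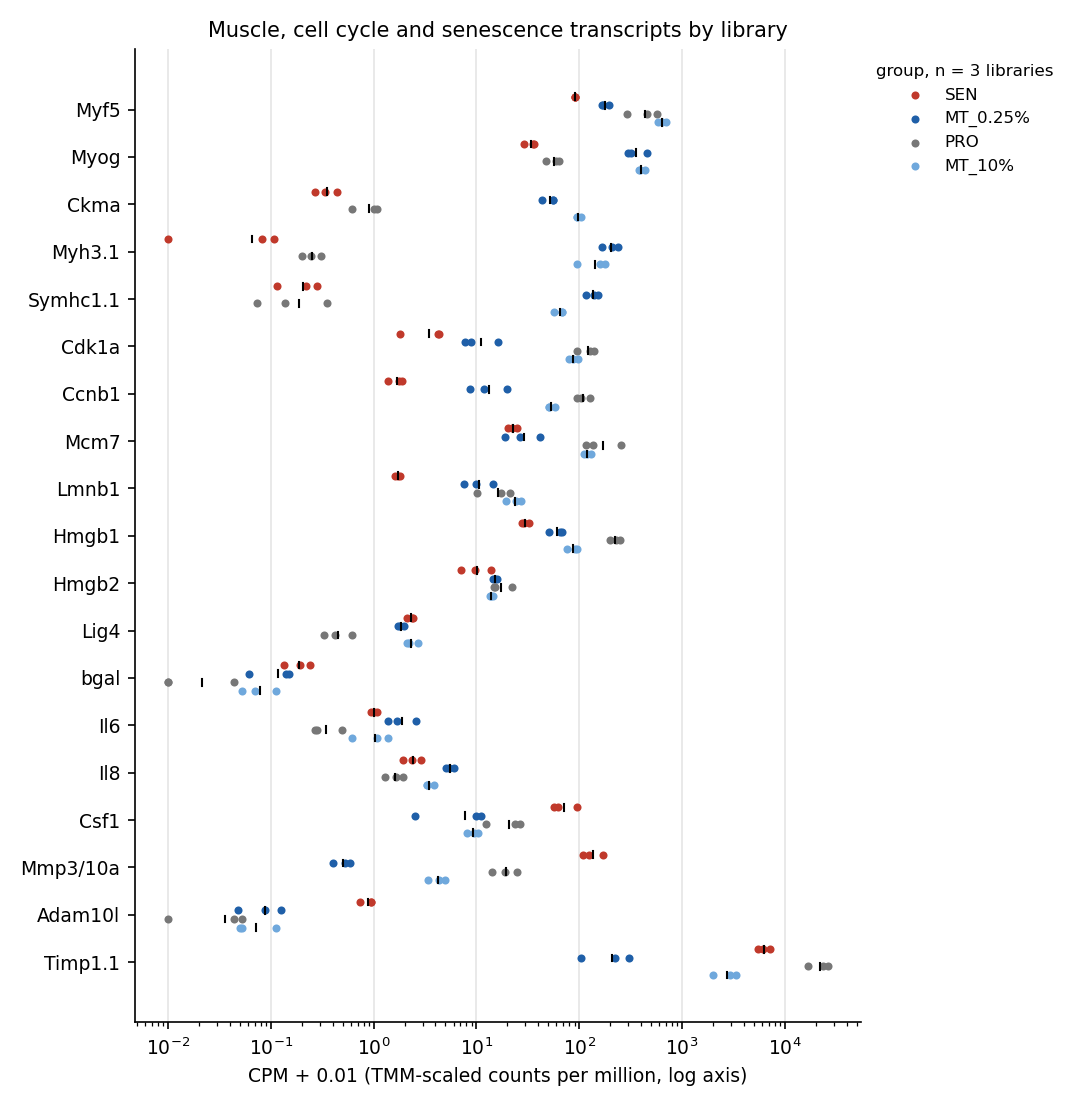
CPM plus 0.01 on a log axis for 19 muscle, cell cycle and senescence transcripts in the 3 libraries of SEN, MT_0.25%, PRO and MT_10% (points; black ticks, group means). Myosins, Ckma and Myog separate both myotube groups from SEN, the cell cycle transcripts put SEN and MT_0.25% well below PRO with MT_10% between, and Mmp3/10a and Csf1 are highest in SEN.

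Enzymes of energy supply split by member. The list held 17 entries, collected by name in the same way, 4 from the SEN table, 12 from the MT table and 1 from both. Of 16 tested, every one was called. On the myotube side were 12 (75%, against 25.5% of all transcripts) and on the SEN side 4 (25%, near the 26.9% of all transcripts). The median was -2.04 (-0.79 and -1.77 on TPM values). Without MT_0.25% replicate 3 the calls were 8 and 2, and 2 were called higher in SEN also without SEN replicate 1 or MT_0.25% replicate 1. On the myotube side stood Ckma, adenylate kinase 1 (comp488_c0_seq1) and GMP reductase (comp29064_c0_seq1), which turns GMP back to IMP. Adenylate kinase 1, which rebuilds ATP from ADP in working muscle, had 2.41, 4.35 and 2.76 CPM in SEN and 109, 73 and 72.3 in MT_0.25% (log2 fold change -4.75 ± 0.30, edgeR adjusted p = 3.6e-11). GMP reductase had 0.135, 0.236 and 0.0179 CPM in SEN and 22.5, 13 and 12.7 in MT_0.25% (log2 fold change -7.04 ± 0.47, edgeR adjusted p = 8.4e-11). On the senescent side an AMP deaminase (comp17223_c0_seq1) had 45.7, 56.2 and 40.5 CPM against 1.61, 2.86 and 2.04 in MT_0.25% and 5.38, 6.23 and 3.72 in PRO (log2 fold change 4.44 ± 0.26, edgeR adjusted p = 1.3e-11). An enolase entry (comp8911629_c0_seq1), for a step of glycolysis, had 16.7, 23.9 and 22.3 CPM in SEN and 1.01, 1.36 and 1.64 in MT_0.25% (log2 fold change 3.95 ± 0.27, edgeR adjusted p = 1.1e-10), while the enolase entry comp7105_c0_seq1 was higher in MT_0.25% (means 0.228 and 0.859 CPM, log2 fold change -1.82). Which enolase each entry stands for cannot be told from these names. The median against MT_10% was 0.04. In that comparison 3 of the 16 members were higher in SEN, near the 18.9% of all transcripts, and 5 were lower, against 16.0% of all transcripts. The other 7 of the 12 myotube-side members were not called there.

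Cell cycle transcripts were low in both states. All 17 members of the proliferation panel had fallen against PRO in SEN and all 17 in MT_0.25% (22.6% and 31.7% of all transcripts were called lower in these 2 comparisons). Between the arrested states 9 were higher in MT_0.25% (52.9%, against 25.5% of all transcripts), 1 was higher in SEN and 7 were not called, with a median of -0.93. Ccnb1, the cyclin that drives entry into mitosis, had 1.37, 1.89 and 1.77 CPM in SEN, against 8.61, 19.6 and 11.9 in MT_0.25% and 95.9, 127 and 105 in PRO (log2 fold change -3.0 ± 0.26, edgeR adjusted p = 7e-09). Cdk1a, its kinase partner, had 1.81, 4.3 and 4.21 in SEN and 7.81, 16.3 and 8.76 in MT_0.25% (log2 fold change -1.68 ± 0.31, edgeR adjusted p = 0.00011). Ccnb3 had 1.76, 3.22 and 2.35 in SEN and 9.55, 16.6 and 14 in MT_0.25% (log2 fold change -2.46 ± 0.24, edgeR adjusted p = 3.4e-08), and Cdc20, the activator of the anaphase complex, 2.16, 4.69 and 3.33 in SEN and 7.36, 22.5 and 11.8 in MT_0.25% (log2 fold change -2.04 ± 0.34, edgeR adjusted p = 4.1e-05). In each of these 4 the groups did not overlap, and MT_0.25% replicate 2 was the highest of the 6 libraries.

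Other members lay closer together. Mcm7, a subunit of the replicative helicase, had 24.8, 20.3 and 22.3 CPM in SEN and 18.9, 41.6 and 26.3 in MT_0.25%, which overlap (log2 fold change -0.37 ± 0.27, edgeR adjusted p = 0.26). Prim2, Fen1, Rfc3 and Orc6, which act in DNA replication, and Aurkba, a mitotic kinase, were not called either, with log2 fold changes between -0.38 and 0.01. Spc24, a kinetochore protein, was the 1 member higher in SEN (means 9.88 and 6.87 CPM, log2 fold change 0.52). Kif22, a chromosome-arm kinesin, was much lower in SEN at 0.193, 0.131 and 0.179 CPM against 0.703, 1.55 and 1.22 (log2 fold change -2.77 ± 0.41, edgeR adjusted p = 8.8e-06). MT_0.25% replicate 2 had the highest sum of cycling markers (186.7 CPM, against 94.9 and 120.0), and the part of cycling cells in the myotube libraries was not tested. With single libraries left out, 7 to 9 were called higher in MT_0.25% and 0 or 1 in SEN. In MT_10%, the summed level was 656, 623 and 633 CPM. All 17 members were lower in SEN than in MT_10% (against 16.0% of all transcripts), with a median of -3.22.

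The study's senescence panel did not separate the states as a whole. Of 14 members tested, 5 were higher in SEN (35.7%, against 26.9% of all transcripts), 6 were higher in MT_0.25% (42.9%, against 25.5%) and 3 were not called, with a median of 0.15 that turned to -0.05 and -0.12 on TPM values. Without SEN replicate 3, the members called higher in MT_0.25% numbered 3. Against PRO, 11 had risen and 3 had fallen in SEN (28.2% and 22.6% of all transcripts), and 6 had risen and 5 had fallen in MT_0.25% (38.0% and 31.7%). Mmp3/10a, a stromelysin-like protease, had 170.2, 108 and 125 CPM in SEN, against 0.39, 0.578 and 0.523 in MT_0.25% and 18.9, 24.6 and 14.1 in PRO, and was thus above PRO in SEN and below it in MT_0.25% (log2 fold change 8.04 ± 0.37, edgeR adjusted p = 2.1e-13 between the states). Csf1, the macrophage growth factor, had 94.4, 56.8 and 62.1 CPM in SEN, against 2.5, 11 and 9.83 in MT_0.25% and 26.6, 23.7 and 12.4 in PRO (log2 fold change 3.18 ± 0.55, edgeR adjusted p = 5.5e-05). Il18, an inflammatory cytokine, had 33.5, 29.5 and 34.3 in SEN, against 3.54, 5.35 and 3.77 in MT_0.25% and 19.4, 16.8 and 14.8 in PRO (log2 fold change 2.94 ± 0.21, edgeR adjusted p = 3.2e-10). Each of these 3 moved in opposite directions from PRO. Adam10l, an ADAM-family protease, was at 0.927, 0.734 and 0.932 CPM in SEN and 0.0781, 0.116 and 0.0382 in MT_0.25% (log2 fold change 3.46 ± 0.52, edgeR adjusted p = 1.2e-05), and Il10 was low in both (means 1.08 and 0.296 CPM, log2 fold change 1.93).

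The interleukins most often used to mark senescence were on the other side in counts. Il6 had 1.06, 0.944 and 1 CPM in SEN, against 1.67, 1.37 and 2.55 in MT_0.25% and 0.478, 0.258 and 0.273 in PRO. It was above PRO in both states and higher in MT_0.25% than in SEN (log2 fold change -0.90 ± 0.34, edgeR adjusted p = 0.031), a call that was lost on TPM values and without any of the 3 SEN libraries or MT_0.25% replicate 3. Il8, a neutrophil chemokine, had 2.34, 2.91 and 1.94 in SEN and 6.09, 5 and 5.43 in MT_0.25% (log2 fold change -1.21 ± 0.21, edgeR adjusted p = 5.7e-05). On TPM values its direction turned (0.23 and 0.29, not called), and the deposited length of the entry averaged 431 bases in SEN and 577 in MT_0.25%. For neither cytokine was the difference called in both units. Il7, a lymphocyte growth factor, was also higher in MT_0.25% (means 0.502 and 1.01 CPM, log2 fold change -0.99).

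Nuclear proteins whose loss accompanies senescence in mammalian cells were lower in SEN than in myotubes. Lmnb1, lamin B1 of the nuclear envelope, had 1.6, 1.7 and 1.79 CPM in SEN, against 7.55, 14.4 and 9.85 in MT_0.25% and 17.4, 10.1 and 21.2 in PRO (log2 fold change -2.64 ± 0.27, edgeR adjusted p = 7.6e-08). Hmgb1, a chromatin protein that cells also release as an alarm signal, had 28.8, 28 and 32.4 in SEN and 64.9, 68.3 and 51 in MT_0.25%, against 199.9, 247 and 227 in PRO (log2 fold change -1.05 ± 0.18, edgeR adjusted p = 5.5e-05). For both, all SEN libraries lay below all MT_0.25% libraries. Hmgb1 was below PRO in both states, as was Lmnb1 in SEN. In MT_0.25% Lmnb1 was called lower than in PRO (-0.61 ± 0.25, MT_0.25% over PRO, edgeR adjusted p = 0.034), although the libraries of these groups overlapped. Its mean TPM, not scaled between libraries, was 7.35 in MT_0.25% and 4.45 in PRO. Hmgb2 differed less, at 9.62, 13.7 and 7.12 in SEN and 15.9, 15 and 14.5 in MT_0.25% (log2 fold change -0.58 ± 0.22, edgeR adjusted p = 0.029), and the call was lost without SEN replicate 1, SEN replicate 3 or MT_0.25% replicate 2. Beta-galactosidase (bgal), the enzyme behind the usual senescence stain, was at 0.232, 0.184 and 0.125 CPM in SEN and 0.052, 0.13 and 0.14 in MT_0.25%, which overlap (log2 fold change 0.64 ± 0.51, edgeR adjusted p = 0.31), with 1 read in all of PRO. Lig4, the ligase of end joining, had 2.41, 2.12 and 2.35 CPM in SEN and 1.95, 1.71 and 1.81 in MT_0.25%, and the difference was not called (log2 fold change 0.34 ± 0.29, edgeR adjusted p = 0.34).

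Transcripts tied to p53 and DNA damage were described as a list of 9 tested (collected by name, 8 from the SEN table, 1 from the MT table and 1 from both, of 10 entries). Among them 4 were higher in SEN (44.4%, against 26.9% of all transcripts) and 1 in MT_0.25% (11.1%, against 25.5%), with a median of 0.46. Ppm1d, a p53 target that switches the damage response off again, had 30.6, 31.8 and 30.1 CPM in SEN, against 10.4, 11.6 and 10.9 in MT_0.25% and 10.0, 7.73 and 8.83 in PRO (comp36956_c0_seq1, log2 fold change 1.49 ± 0.17, edgeR adjusted p = 4.3e-07). It was higher in SEN alone, as was Lats2 (comp175062_c0_seq1), a kinase of the Hippo pathway, with 8.51, 4.98 and 4.68 CPM in SEN and 1.22, 1.66 and 1.44 in MT_0.25% (log2 fold change 2.06 ± 0.28, edgeR adjusted p = 4.1e-06). The other called members were a spindle checkpoint kinase entry (comp168360_c0_seq2, BUB1 beta, 145, 114 and 109.9 CPM in SEN and 11, 22.8 and 19.9 in MT_0.25%), the telomere protein TRF1 interacting nuclear factor 2 (means 14.0 and 6.14 CPM, log2 fold change 1.19) and, higher in MT_0.25%, the apoptosome protein Apaf (comp118590_c0_seq1, 0.599, 0.341 and 0.376 CPM in SEN and 1.3, 1.13 and 1.38 in MT_0.25%). The checkpoint kinase thus went against Ccnb1, Cdk1a and Cdc20, which were lower in SEN, and its deposited length averaged 1417 bases in SEN and 499 in MT_0.25%.

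Lysosomal transcripts had, among the 18 lists, the largest share called higher in SEN. Of 17 (15 from the SEN table, 2 from both), 12 were higher in SEN (70.6%, against 26.9% of all transcripts) and 1 was higher in MT_0.25%, with a median of 0.97. All were picked by the study as higher in SEN than in PRO on these same SEN libraries. The direct difference uses those libraries too and is tilted towards SEN by the pick, so this share is not independent evidence. Lysosomal-associated transmembrane protein 5 (comp2400_c0_seq1) had 756, 361 and 543 CPM in SEN, against 42.4, 121 and 91 in MT_0.25% and 111, 102 and 94 in PRO (log2 fold change 2.71 ± 0.40, edgeR adjusted p = 9.4e-06), and was raised in SEN alone. Mucolipin 1 (comp28590_c0_seq1), the calcium channel of the lysosomal membrane, had 20.9, 12.3 and 17.8 in SEN and 2.78, 5.18 and 4.12 in MT_0.25% (log2 fold change 2.07 ± 0.24, edgeR adjusted p = 3.6e-07). The V-type proton pump, which acidifies lysosomes, had 4 subunit entries, all called higher in SEN with log2 fold changes of 1.24, 0.97, 0.77 and 1.19. LC3 (comp2839_c0_seq2), the autophagosome protein, followed with means of 252 and 64.3 CPM (log2 fold change 1.97). The exception was an acid sphingomyelinase entry (comp6903_c0_seq8) at 0.637, 0.603 and 0.269 CPM in SEN and 1.46, 1.56 and 2.69 in MT_0.25%. Against MT_10%, 11 of the 17 were higher in SEN and none was lower (18.9% and 16.0% of all transcripts), with a median of 0.86.

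**Figure D3:**
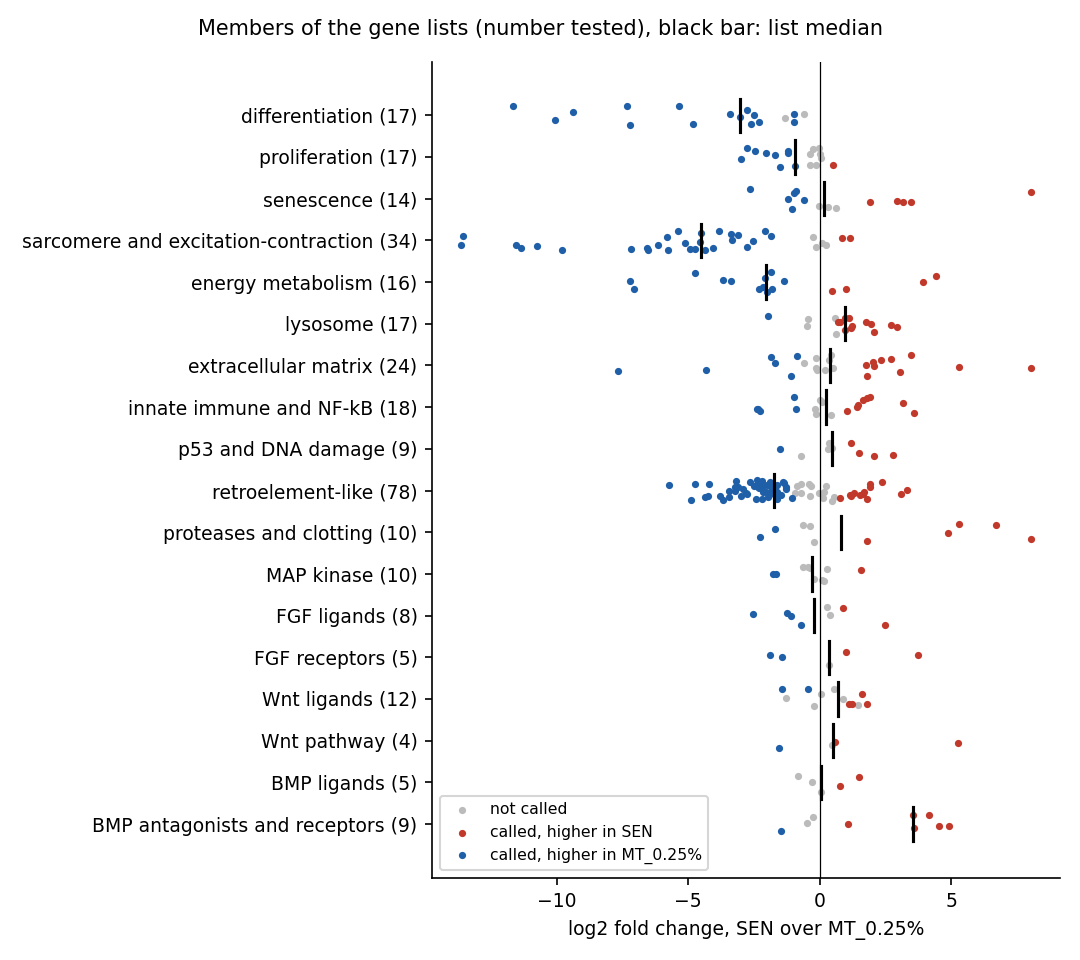
Log2 fold change of SEN over MT_0.25% for each tested member of 18 gene lists (points; number tested in parentheses; black bars, list medians). Red and blue points were called higher in SEN and in MT_0.25%, and grey points were not called. Medians run from -4.52 for the sarcomere list to 3.53 for BMP antagonists and receptors, and some transcripts sit in more than 1 list.

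Matrix and protease transcripts were called in both directions. Of 24 matrix transcripts tested (20 from the SEN table, 3 from the MT table, 1 from both), 10 were higher in SEN (41.7%, against 26.9% of all transcripts), 6 were higher in MT_0.25% (25.0%, near the 25.5% of all transcripts) and 8 were not called. Their median was 0.39, 0.15 without SEN replicate 1, and it turned to -0.13 and -0.14 on TPM values. Mmp9th, a gelatinase-type metalloproteinase, had 2659, 1348 and 2175 CPM in SEN, against 31.5, 68.1 and 55.9 in MT_0.25% and 753, 724 and 381 in PRO (log2 fold change 5.31 ± 0.38, edgeR adjusted p = 3e-10), so that it had risen in SEN and fallen in MT_0.25%. Cartilage oligomeric matrix protein (comp131209_c0_seq1) moved likewise, at 48.3, 28.3 and 32.2 in SEN, against 2.34, 5.81 and 4.97 in MT_0.25% and 14.3, 10.6 and 11.4 in PRO (log2 fold change 3.04 ± 0.33, edgeR adjusted p = 1.4e-07). Of the other members higher in SEN, a procollagen lysine hydroxylase entry had means of 62.8 and 12.5 CPM (log2 fold change 2.33) and a proline hydroxylase entry 32.7 and 9.30 (log2 fold change 1.81).

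The members higher in MT_0.25% included ADAM 13 (comp614892_c0_seq2), a metalloprotease of migrating mesenchyme in frog embryos, which had 0.0579, 0.0262 and 0.0717 CPM in SEN and 14.7, 10.6 and 9.99 in MT_0.25% (log2 fold change -7.68 ± 0.34, edgeR adjusted p = 1.5e-13). A collagen XXVIII entry (comp699575_c0_seq1) had 1.06, 1.26 and 1.09 in SEN and 24.4, 18.7 and 24.6 in MT_0.25% (log2 fold change -4.31 ± 0.22, edgeR adjusted p = 1.1e-12). ADAMTS20 (comp641282_c0_seq1) had 5.93, 3.07 and 4.8 in SEN and 19, 14.4 and 16.3 in MT_0.25% (log2 fold change -1.84 ± 0.22, edgeR adjusted p = 7.8e-07), and had risen against PRO in both states. Tenascin C, a matrix protein of wounds and blastemas, was higher in MT_0.25% too, at means of 167 and 299 CPM (log2 fold change -0.84) against 50.6 in PRO. The related stromelysin Mmp3/10b went against Mmp3/10a, with 4.98, 3.28 and 4.32 CPM in SEN and 15.3, 11.2 and 14.1 in MT_0.25% (log2 fold change -1.69 ± 0.21, edgeR adjusted p = 1.3e-06). The 2 are alike in sequence by name, so reads may have been divided between them.

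In the study's panel of proteases and clotting factors, 5 of 10 were higher in SEN (50%, against 26.9% of all transcripts), 2 were higher in MT_0.25% (20%, against 25.5%) and the median was 0.80. Timp1.1, an inhibitor of metalloproteinases, was abundant, at mean TPM of 4969 in SEN, against 191 in MT_0.25% and 7674 in PRO. Its CPM was 7142, 5477 and 6096 in SEN, against 103, 305 and 221 in MT_0.25% and 26102, 23629 and 16624 in PRO (log2 fold change 4.90 ± 0.37, edgeR adjusted p = 8.3e-10). It had fallen in both states, far more in myotubes, and was 2914, 2019 and 3333 in MT_10%. F11, named factor XI, a clotting protease, had 110.0, 65.2 and 106 CPM in SEN, against 0.755, 1.08 and 0.816 in MT_0.25% and 19.5, 22.2 and 15.8 in PRO (log2 fold change 6.71 ± 0.41, edgeR adjusted p = 2.2e-11). F10, the protease that activates thrombin, did the opposite: 21.1, 20.4 and 22.4 in SEN, against 131, 87.3 and 87.7 in MT_0.25% and 35.4, 46.5 and 36.8 in PRO (log2 fold change -2.26 ± 0.22, edgeR adjusted p = 2.5e-08). The thrombin receptor F2RL3 was not called between SEN and PRO (-0.33 ± 0.19, SEN over PRO) and was lower in MT_0.25%, with 34.1, 41.8 and 38.5 CPM in SEN and 11.6, 11.2 and 9.98 in MT_0.25% (log2 fold change 1.80 ± 0.19, edgeR adjusted p = 1.1e-07). Against MT_10%, 6 of the 10 were higher in SEN (against 18.9% of all transcripts) and 2 lower (near the 16.0% of all transcripts), with a median of 1.20. Timp1.1 was also taken as a marker of mononucleate cells, although Myf5, the other marker of that pair, was higher in MT_0.25% than in SEN. The part of mononucleate cells in these differences was not tested.

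Innate immune and NF-kB transcripts fell on both sides. Of 18 tested (16 from the SEN table and 4 from the MT table among 20 entries), 8 were higher in SEN (44.4%, against 26.9% of all transcripts) and 5 in MT_0.25% (27.8%, near the 25.5% of all transcripts). The median was 0.25, 0.10 without SEN replicate 1, and -0.0020 and 0.062 on TPM values. The myotube-side count was 3 without SEN replicate 2, SEN replicate 3 or MT_0.25% replicate 3. Factor B (comp1106_c1_seq3, B-factor, properdin), a protease of the alternative complement pathway, had 228, 109.9 and 147 CPM in SEN, against 22.7, 63.7 and 43.3 in MT_0.25% and 38.5, 32.3 and 32.1 in PRO (log2 fold change 1.90 ± 0.33, edgeR adjusted p = 6e-05). Tissue factor (comp24275_c0_seq2), which starts clotting, had 24.9, 13.3 and 14.6 CPM in SEN and 0.859, 2.02 and 1.38 in MT_0.25% (log2 fold change 3.61 ± 0.32, edgeR adjusted p = 6.4e-09). The interferon-induced oligoadenylate synthetase was higher in SEN as well (means 125 and 40.4 CPM, log2 fold change 1.63). Interferon gamma receptor 1 (comp25620_c0_seq1) was on the myotube side, at 40.7, 40.9 and 43.1 CPM in SEN, against 249, 192 and 214 in MT_0.25% and 21.8, 18.1 and 16.7 in PRO (log2 fold change -2.39 ± 0.19, edgeR adjusted p = 1.2e-09). So were 2 low entries, the interleukin-5 receptor alpha chain (comp672550_c1_seq2, 0.212, 0.21 and 0.323 CPM in SEN and 0.781, 1.17 and 1.81 in MT_0.25%) and complement C8B (comp13654_c1_seq1, 0.599, 1.49 and 0.538 in SEN and 2.97, 3.35 and 6.14 in MT_0.25%). Nfkb2 and Ikbkb, of the NF-kB pathway itself, were not called (log2 fold changes 0.03 and -0.18).

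FGF signals were compared by ligand, receptor and kinase. FGFs keep progenitors of the limb dividing and hold back muscle differentiation. Of 8 ligand entries tested, 4 were higher in MT_0.25% (50%, against 25.5% of all transcripts) and 2 were higher in SEN (25%, near the 26.9% of all transcripts). Without SEN replicate 3 the myotube side had 2, which is near the share of all transcripts as well. Fgf19, a hormone-like FGF, had 7.88, 8.65 and 4.73 CPM in SEN and 0.859, 1.46 and 1.43 in MT_0.25% (log2 fold change 2.48 ± 0.33, edgeR adjusted p = 2.5e-06). Fgf12 and Fgf13, which act inside cells on sodium channels, went apart: Fgf12 had 10.3, 11.5 and 8.59 CPM in SEN and 5.34, 5 and 5.88 in MT_0.25% (log2 fold change 0.91 ± 0.19, edgeR adjusted p = 0.00048), and Fgf13 1.53, 1.44 and 1.25 in SEN and 9.58, 7.32 and 7.32 in MT_0.25% (log2 fold change -2.52 ± 0.23, edgeR adjusted p = 1.5e-08). Fgf8 and Fgf10, the ligands that keep a limb bud growing, were somewhat higher in MT_0.25%: Fgf8 at 1.68, 2.73 and 1.9 CPM in SEN and 3.07, 3.7 and 3.58 in MT_0.25% (log2 fold change -0.73 ± 0.24, edgeR adjusted p = 0.017), and Fgf10 at 2.61, 1.63 and 3.06 in SEN and 5.91, 4.61 and 5.21 in MT_0.25% (log2 fold change -1.10 ± 0.24, edgeR adjusted p = 0.00067). The Fgf8 call was lost without SEN replicate 1, SEN replicate 3 or MT_0.25% replicate 2, and the Fgf10 call on TPM values, and neither was called against MT_10%.

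The receptors were split as well. Fgfr1 had 15, 6.82 and 10.5 CPM in SEN, against 0.416, 1.23 and 0.727 in MT_0.25% and 2.23, 2.02 and 1.09 in PRO, with all SEN libraries above and all but 1 MT_0.25% library below the PRO range (log2 fold change 3.73 ± 0.42, edgeR adjusted p = 2.9e-07). Fgfr2.2 was instead higher in myotubes, at 13.4, 8.23 and 9.82 in SEN, against 29.5, 42.4 and 45.1 in MT_0.25% and 36.5, 49.9 and 50.7 in MT_10% (log2 fold change -1.90 ± 0.21, edgeR adjusted p = 1.6e-07). Fgfr3.1 had 81.8, 51.7 and 95 CPM in SEN and 46.8, 38.7 and 28.7 in MT_0.25% (log2 fold change 1.0 ± 0.23, edgeR adjusted p = 0.0012), lower in MT_0.25% alone. Entries of the receptor family share sequence, so reads may have been divided among them. Of 10 MAP kinase entries, which carry such signals inward, 3 were called: Jund, an AP-1 factor, was higher in SEN (46, 31.7 and 32.5 CPM in SEN and 13.1, 12.6 and 11.8 in MT_0.25%, log2 fold change 1.56 ± 0.18, edgeR adjusted p = 3.9e-07), and Map3k7, the TGF-beta activated kinase, was higher in MT_0.25% (57.7, 68.5 and 64.7 in SEN and 273, 176 and 150.2 in MT_0.25%, log2 fold change -1.65 ± 0.23, edgeR adjusted p = 5e-06). Mapk4 was also higher in MT_0.25%, at 0.714, 1.18 and 0.484 CPM in SEN and 2.32, 2.18 and 3.53 in MT_0.25%. This share (30%) was below the 52.3% of all transcripts.

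Of 12 Wnt ligand entries tested, 4 were higher in SEN (33.3%, near the 26.9% of all transcripts) and 2 in MT_0.25% (16.7%, against 25.5%), with a median of 0.71 that was 0.08 on TPM values and 1.01 without SEN replicate 2, when 7 and 3 were called. Wnt2b had 58.7, 41.2 and 57.5 CPM in SEN, against 15.8, 19.8 and 15.8 in MT_0.25% and 17.3, 12.9 and 34.9 in PRO (log2 fold change 1.62 ± 0.29, edgeR adjusted p = 8.2e-05). Its deposited length averaged 1119 bases in SEN and 381 in MT_0.25%. The mean TPM were 36 and 31.5, and the difference was not called on that scale. The entry Protein Wnt.1 (8.26, 5.11 and 8.14 CPM in SEN and 1.51, 2.15 and 2.41 in MT_0.25%) had a like difference in length, 1632 and 544 bases. Wnt2 (5.29, 7.18 and 7.56 CPM in SEN and 3.64, 2.85 and 2.05 in MT_0.25%, log2 fold change 1.24 ± 0.26, edgeR adjusted p = 0.00044) was lower in MT_0.25% alone. Wnt8b and Wnt7b were higher in MT_0.25%, with log2 fold changes of -1.43 ± 0.32 and -0.45 ± 0.16, the latter lost without SEN replicate 1 or MT_0.25% replicate 3 and on TPM values. Axin2, a target and brake of the pathway, had 0.386, 0.734 and 0.502 CPM in SEN and 1.59, 1.6 and 1.47 in MT_0.25% (log2 fold change -1.54 ± 0.26, edgeR adjusted p = 4.3e-05), but its deposited length averaged 209 and 600.0 bases and its mean TPM 1.34 and 1.48, with no call there.

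Dkk1, a secreted inhibitor of Wnt receptors, was lower in MT_0.25% alone. It had 95, 80.5 and 63.3 CPM in SEN, 60.2, 78.4 and 42.2 in PRO and 1.15, 2.65 and 2.28 in MT_0.25%, a 38.6-fold gap between the arrested states (log2 fold change 5.27 ± 0.32, edgeR adjusted p = 1.9e-11). MT_10% lay between at 16, 12.8 and 17.4. The beta-catenin entry Ctnnb1.s.2, the effector of the pathway, was above PRO in both states and somewhat higher in SEN (236, 202 and 213 CPM in SEN and 139.9, 172 and 126 in MT_0.25%, log2 fold change 0.57 ± 0.19, edgeR adjusted p = 0.014), a call that was lost without SEN replicate 1 or MT_0.25% replicate 3 and on TPM values.

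Most BMP antagonists were higher in SEN than in MT_0.25%. BMPs are growth factors of limb and bone, and antagonists such as gremlin, noggin and chordin bind them outside the cell. In the panel of antagonists and receptors, 6 of 9 were higher in SEN (66.7%, against 26.9%), 1 was higher in MT_0.25% and the median was 3.53 (0.72 and 2.16 on TPM values). Grem1 had 22.9, 16.2 and 16.2 CPM in SEN, 23.8, 14.9 and 10.6 in PRO and 0.104, 0.839 and 0.752 in MT_0.25% (log2 fold change 4.93 ± 0.46, edgeR adjusted p = 1.5e-08), with mean TPM of 8.9 and 1.08 in SEN and MT_0.25%. Nog2 had 14.5, 11.2 and 10.9 in SEN, 5.7, 4.98 and 3 in PRO and 0.573, 0.622 and 0.408 in MT_0.25% (log2 fold change 4.52 ± 0.30, edgeR adjusted p = 9.8e-11). For both, the myotubes in 0.25% FCS had less than both other groups, with no overlap of SEN and MT_0.25%. Vwc2 (brorin), another BMP inhibitor, was low throughout (means 0.605 CPM in SEN and 0.0266 in MT_0.25%, log2 fold change 4.15). Chrd was raised in SEN alone, at 5.1, 2.04 and 3.26 CPM against 0.319, 0.344 and 0.273 in PRO and 0.234, 0.289 and 0.331 in MT_0.25% (log2 fold change 3.57 ± 0.37, edgeR adjusted p = 8.4e-08). MT_10% changed the picture for some: Nog2 was at 10.6, 13.8 and 13.9 CPM there, near SEN (-0.07 ± 0.25, SEN over MT_10%, edgeR adjusted p = 0.87), and Grem1 at 9.83, 7.13 and 15.5 (0.77 ± 0.37, edgeR adjusted p = 0.12), whereas Chrd and Dkk1 were still higher in SEN (2.51 ± 0.35 and 2.37 ± 0.28). Over the panel, 3 of 9 were higher in SEN than in MT_10% (against 18.9% of all transcripts) and the median was 0.77.

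Among the BMP ligands, whose median was 0.04 and turned to -0.35 without SEN replicate 1, Bmp7 and Bmp2.2 were higher in SEN and the other 3 of 5 were not called. Bmp7 had 1478, 1177 and 1278 CPM in SEN, against 366, 497 and 536 in MT_0.25% and 3977, 4944 and 2839.7 in PRO, having fallen in both states (log2 fold change 1.49 ± 0.22, edgeR adjusted p = 8e-06). Bmp2.2 had 26.2, 19.1 and 30.2 in SEN and 18.6, 13.9 and 11.8 in MT_0.25% (log2 fold change 0.77 ± 0.21, edgeR adjusted p = 0.0045), with PRO at 21.5, 28.6 and 34.1, lower in MT_0.25% alone. Neither ligand was called between SEN and MT_10%.

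**Figure D4:**
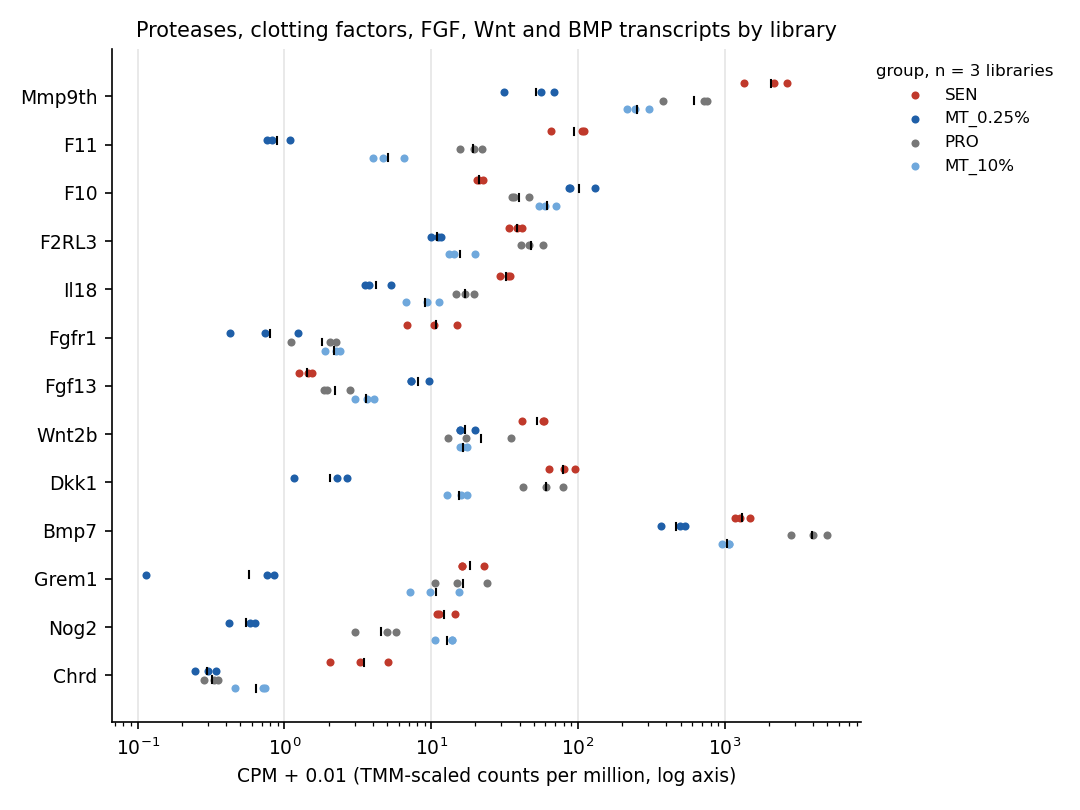
CPM plus 0.01 on a log axis for 13 protease, clotting, cytokine, FGF, Wnt and BMP transcripts in the 3 libraries of SEN, MT_0.25%, PRO and MT_10% (points; black ticks, group means). Mmp9th, F11, Dkk1, Grem1 and Nog2 are lowest in MT_0.25%, MT_10% lies between MT_0.25% and SEN for the first 4, and F10 and Fgf13 are highest in MT_0.25%.

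Entries that resemble retroelements made up the largest list and were mostly on the myotube side. Retroelements are repeats that copy themselves through RNA, and their transcripts are normally held down by DNA and histone methylation. The 82 entries were collected by name, 26 from the SEN table, 43 from the MT table and 13 from both, and 78 were tested. Of these, 52 were higher in MT_0.25% (66.7%, against 25.5% of all transcripts) and 13 were higher in SEN (16.7%, against 26.9%). The median was -1.75 (-0.84 and -1.67 on TPM values). With more members drawn from the MT table, the pick on these same libraries tilts the share towards MT_0.25%, so it is not independent evidence. Most were low: the median of the group means was 0.383 CPM in SEN, 1.14 in MT_0.25%, 0.126 in PRO and 0.399 in MT_10%. Against MT_10%, 14 members were higher in SEN and 10 lower, both near the shares of all transcripts (18.9% and 16.0%), with a median of 0.04. The R2-like entry comp1639906_c0_seq1 was higher in level than most and remained high in MT_10%, at 4.25, 4.77 and 4.89 CPM in SEN, against 276, 209 and 256 in MT_0.25% and 179.9, 226 and 212 in MT_10% (log2 fold change -5.73 ± 0.24, edgeR adjusted p = 5e-14). Lower entries such as comp2438923_c0_seq1, named reverse transcriptase-like, had 0.154, 0.131 and 0 CPM in SEN and 2.94, 2.23 and 2.38 in MT_0.25% (log2 fold change -4.75 ± 0.46, edgeR adjusted p = 2.8e-08) but 0.644, 0.613 and 0.8 in MT_10%.

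The members higher in SEN included envelope genes of old proviruses, some of which serve in cell fusion in mammalian placenta. The HERV-R-like envelope entry comp244745_c0_seq1 had 51.7, 64.3 and 36.5 CPM in SEN, against 2.26, 7.04 and 5.65 in MT_0.25% and 20.6, 19.7 and 9.96 in PRO (log2 fold change 3.34 ± 0.36, edgeR adjusted p = 1.6e-07). The HERV-V-like envelope entry comp873220_c0_seq1 had 35.1, 15.7 and 26.3 in SEN, against 3.02, 6.62 and 5.23 in MT_0.25% and 9.05, 5.24 and 10.5 in PRO (log2 fold change 2.37 ± 0.30, edgeR adjusted p = 1.5e-06). Both were above PRO in SEN. In MT_0.25% the HERV-R-like entry was below PRO, whereas for the HERV-V-like one the CPM of MT_0.25% and PRO overlapped. The mean TPM of the HERV-V-like entry, not scaled between libraries, was 22.4 in MT_0.25% and 16.5 in PRO. A Pol-like entry, comp1461329_c0_seq1, had 3.42, 6.11 and 1.97 CPM in SEN and 0.911, 0.853 and 1.24 in MT_0.25% (log2 fold change 1.92 ± 0.39, edgeR adjusted p = 0.00035). MT_0.25% libraries also had more entries above 0 than SEN libraries (25594 to 26414, against 25291 to 25440), and whether the low retroelement-like reads share a source with that was not tested.

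**Figure D5:**
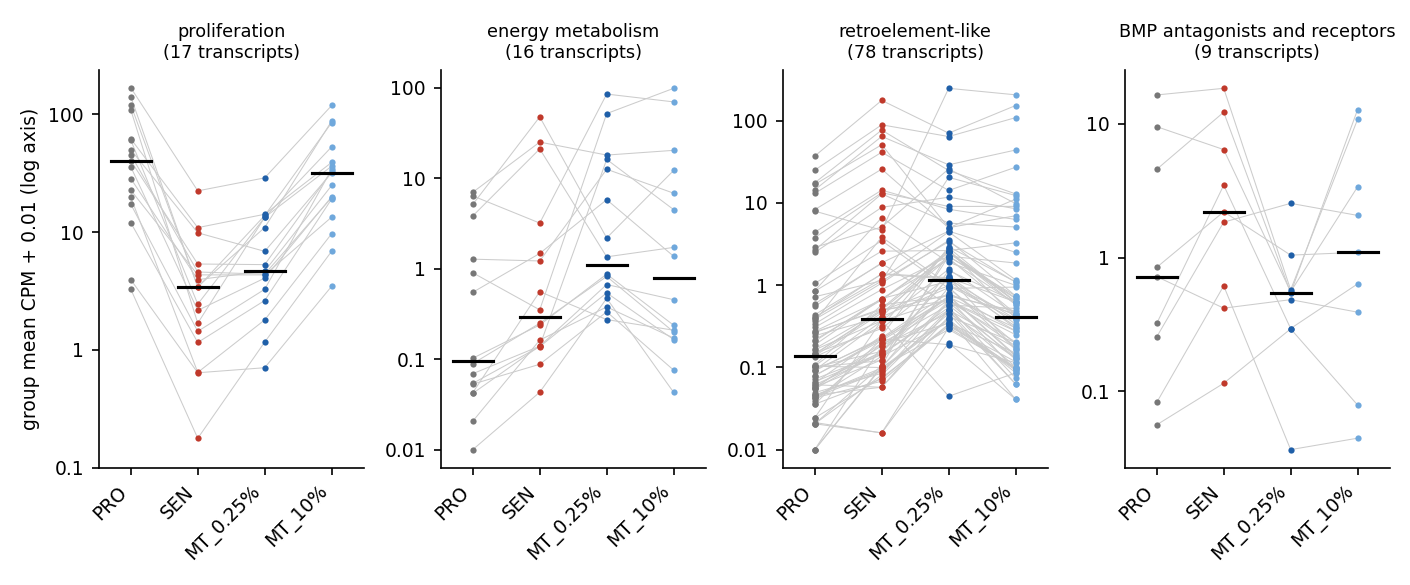
Group mean CPM plus 0.01 on a log axis for the tested members of 4 lists in PRO, SEN, MT_0.25% and MT_10% (points; grey lines join 1 transcript; black bars, medians of the plotted values). The proliferation panel is low in SEN and MT_0.25% with MT_10% between these and PRO, and the retroelement-like list stands highest in MT_0.25% with medians of 0.383 in SEN and 0.399 CPM in MT_10%.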

How the data were processed

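RNA-seq of A1 cells was examined in 18 libraries, 3 per group. The authors trimmed reads with Trim Galore and quantified each library separately with Sailfish against a transcriptome assembled de novo (Sailfish version not given in the sources used here), and deposited an estimated count, a TPM value and a length per entry for 27395 entries. Positions are left out because the entries are not tied to a genome build.

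Deposited estimated counts were rounded to whole numbers. The 23107 entries that passed edgeR's filter on low counts were fitted over all 18 libraries with 1 mean per group (edgeR 4.0.16 quasi-likelihood test, TMM scaling, R 4.3.3), and p-values were adjusted over all entries by Benjamini-Hochberg, with 0.05 as the threshold. Standard errors were taken from the F statistic, as the absolute log2 fold change divided by its square root. Alternatives were RLE factors, DESeq2 1.42.0, limma 3.58.1 on log2(TPM + 1) and log2(TPM + 0.1) from the deposited TPM, no filter, a fold threshold of 2, fewer groups in the fit, a replicate block and leaving out each library. A median-ratio scaling of TPM was added after seeing the data. The direct test, run on simulated data for this comparison with 23107 genes, recovered 28% of 100 genes with an absolute log2 fold change of 1 and 86% of 100 with 2, with a false share of 5%. Only 200 genes were changed in the simulation, whereas 12092 were called in the real libraries. These shares therefore do not carry over to the real comparison.

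The members and gene lists were chosen with earlier results of these data known. Transcripts named were set anchors, up to 3 per list and direction with the largest called difference, non-overlapping groups and a mean of at least 50 counts in the higher group, the largest differences overall and the furthest movers of each class. Names came from the study's supplementary tables. For 124 of 124 panel rows the values single out 1 entry. In the larger tables of transcripts higher in SEN or MT the ID column matched the values of no entry, so, in a change from the plan made after seeing the files, names were attached by values alone (1980 of 1993 and 1790 of 1985 rows), and 41 entries present in both sources had the same name in each. List members given by means only (Spc24, Il7, Il10, Musk and others), Prim2, Fen1, Rfc3, Orc6, Aurkba, Nfkb2 and Ikbkb were chosen after their values were seen. Some transcripts the rule names are not reported here.

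Same-numbered SEN and PRO libraries deviated together from their group means (correlations 0.375, 0.370 and 0.431). These numbers may thus pair the libraries, by that check alone, as the labels do not give a pairing. The main fit did not use such a pairing. The replicate block gave each number the same effect in all groups, so a pairing of SEN with PRO alone was not fitted. Counting intervals and floors (3 counts over a group) cover counting error only.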

Additional observations from a re-analysis of the deposited data

Results flagged for a closer look

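Of the 33 named transcripts for which SEN and MT_0.25% had moved to opposite sides of PRO, the 6 that had moved furthest by the smaller of their 2 moves, 3 in each direction, are given here. The direct test called the difference between the 2 states for each, as it did for all 546 and all 232 transcripts with opposite moves. These calls follow from the choice and add no support. Mmp3/10a, a stromelysin-like protease, was 2.81 ± 0.28 for SEN over PRO and -5.23 ± 0.33 for MT_0.25% over PRO, and 8.04 between the states. Alpha-1-antiproteinase (comp350_c0_seq1) was 4.08 ± 0.66 and -4.26 ± 1.28 against PRO and 8.34 between the states, a fitted value that rests on 1 read in MT_0.25% and 13 in PRO. FAM166B (comp176651_c0_seq1) was 2.99 ± 0.27 and -3.48 ± 0.31, and 6.47 between the states.

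On the myotube side, parvalbumin beta (comp98_c0_seq1) was -3.42 ± 0.49 for SEN over PRO and 7.33 ± 0.43 for MT_0.25% over PRO, and -10.75 between the states. Fast skeletal troponin C (comp73_c0_seq1), at 0 in all SEN libraries, had fitted values of -6.0 and 7.55 and -13.54 between the states, and its PRO reads came from 1 library. TRPV2 (comp29022_c0_seq2), a calcium channel, was at 0 in all SEN libraries, at 3.8, 3.4 and 5.24 CPM in MT_0.25% and at 0, 0 and 0.205 in PRO, with a fitted value of -10.52 between the states and an MT_0.25% level at least 207-fold that of SEN. The fitted values of these last 2 depend on the prior count and are not bounds. What lies behind the opposite moves was not tested.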

How the results depend on the processing

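Of 468 alternative values for counts and list medians, 415 were counted as unchanged. This label allowed small moves of a median across 0 and wide moves of a count. It covered 4230 transcripts called higher in SEN on log2(TPM + 0.1), against 6210 in the main fit. It also covered 2889 shared rises on median-ratio scaled TPM, against 4211. Among the medians counted as unchanged, the senescence median was -0.029 without SEN replicate 3. That of BMP ligands was -0.23 without MT_0.25% replicate 2. Of 1530 values for named transcripts, 1473 kept their direction and their side of the threshold. With a fold threshold of 2, 2117 transcripts were called higher in SEN and 2401 lower. On log2(TPM + 1) and log2(TPM + 0.1), the shared rises numbered 11049 and 12715, the shared falls 495 and 472, the opposite moves with MT_0.25% higher 78 and 88, those lower in SEN alone 140 and 147, those lower in MT_0.25% alone 716 and 721, and those higher in MT_0.25% alone 1884 with the pseudocount of 0.1. Without the direct call as a condition, 656 were lower in SEN alone.

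List medians on log2(TPM + 1) and log2(TPM + 0.1) and then on median-ratio scaled TPM were -1.85, -2.40 and -1.60 for differentiation, -2.64, -4.06 and -2.37 for the sarcomere list, -0.79, -1.77 and -0.60 for energy, 0.079, 0.083 and 0.14 for Wnt ligands, 0.72, 2.16 and 0.66 for BMP antagonists and receptors and -0.13, -0.14 and 0.0027 for matrix, where the first pair reversed. The senescence median reversed to -0.054 and -0.12 with the first pair. The retroelement-like median was -0.84 on log2(TPM + 1) and -0.64 after median-ratio scaling, that of FGF ligands -0.60 and of BMP ligands -0.42 (reversed) on log2(TPM + 0.1). Il8 reversed to 0.23, 0.29 and 0.32 under the 3 TPM settings and Axin2 to 0.035 after median-ratio scaling. The TPM settings differ from the count fit by the deposited length, the pseudocount and the lack of TMM scaling between libraries. Of the calls between SEN and PRO, 55.5% were higher in SEN in counts and 94.7% on log2(TPM + 1). After median-ratio scaling of the TPM the share was 46.5%. The part of each of these differences in the moves was not tested.

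With single libraries left out, the medians ranged from -4.71 to -4.27 for the sarcomere list, -2.32 to -1.68 for energy, 0.15 to 0.54 for matrix, -2.03 to -1.46 for the retroelement-like list, -0.36 to -0.15 for FGF ligands, 0.45 to 1.01 for Wnt ligands, -0.35 (reversed, without SEN replicate 1) to 0.46 for BMP ligands and 3.19 to 3.73 for BMP antagonists and receptors. Same-numbered SEN and MT_0.25% libraries deviated in opposite ways from their group means (correlations -0.36, -0.24 and -0.27), so they share only a number, and no SEN library correlated best with its own number. With the replicate block, 6119 transcripts were called higher in SEN and 5775 lower, no call of a named transcript was ended or reversed, and the members called higher in SEN went from 2 to 1 in the sarcomere list and from 8 to 7 in the innate immune list. At this depth a level at or under 3 counts over a group leaves the size of a ratio poorly known. This holds for bgal in PRO (SEN over PRO, 95% counting interval 2.46 to 614). It also holds for Anterior gradient protein 2 and comp350_c0_seq1 in MT_0.25%. A fit limited to the 9 libraries of PRO, SEN and MT_0.25% leaves MT_10% out and was not run for it.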

Other observations

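The length deposited for an entry was the same in all 18 libraries for 25.0% of entries. Between SEN and MT_0.25% the mean length differed by over 1.5 times for 795 of the 6210 transcripts called higher in SEN (12.8%), 686 of them longer in SEN and 109 in MT_0.25%, and for 825 of the 5882 called higher in MT_0.25% (14.0%), 435 longer in SEN and 390 in MT_0.25%. Among the 102 named transcripts it did so for 19. Myog averaged 633 bases in SEN and 961 in MT_0.25%, and Ccnb1 276 and 422. Collagen XXVIII (comp699575_c0_seq1) averaged 1516 bases in SEN and 262 in MT_0.25%, AMP deaminase (comp17223_c0_seq1) 2188 and 699, and Grem1 1137 and 454. Adenylate kinase 1 (comp488_c0_seq1) went the other way with 615 and 1239.8, as did the R2-like entry comp1639906_c0_seq1 with 161 and 419.5. The deposited gene-level tables do not give the isoforms behind these lengths, and whether the arrested states use different isoforms was not tested.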
